A study of Mus musculus with 47 samples.

Results

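Genes of neuronal calcium-binding proteins were followed in single neurons positive for neuropeptide Y (NPY), taken from auditory cortex (AC) and from hippocampal areas CA3 and CA1. The genes are 9 of the 22800 gene symbols in the count table and were taken by name. They are the calcium buffers Calb1 (calbindin), Calb2 (calretinin) and Pvalb (parvalbumin), the hippocalcin-like sensors Hpca, Hpcal1, Hpcal4 and Ncald, and Necab1 and Necab2, which carry an EF hand near the N terminus. Of the 47 cells sequenced, 26 were used here, namely 10 cells of AC, 13 of CA3 and 3 of CA1. Each cell was an NPY-positive neuron of an NPY-EGFP mouse, as the series calls the strain, or NPY-hrGFP mouse, as the methods do, in which regulatory sequence of Npy drives a fluorescent protein. The mice were 3 to 8 weeks old, carried no further allele and received no treatment that the labels name, and 8 of them gave all cells of the series. Cytosol was drawn into the patch pipette, from layers 1 and 2 in AC and at the border of stratum lacunosum-moleculare in CA3, and polyadenylated RNA was sequenced. AC cells came from coronal and hippocampal cells from horizontal slices, so region and slice plane cannot be told apart. The AC and CA3 cells are those whose columns fit the values drawn in the study's heat maps, so the set of cells was itself chosen on expression values, and its CA3 cells are fewer than the study kept.

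Proteins with EF hands bind calcium that enters a neuron during action potentials and synaptic activity. Buffers such as calbindin, calretinin and parvalbumin mainly shape the size and time course of the calcium signal, and the same 3 proteins have long been used to sort cortical and hippocampal interneurons into classes. Sensors such as hippocalcin and neurocalcin change shape on binding calcium, expose a fatty acid tail and move to membranes, where they act on other proteins. Neurogliaform cells, the late-spiking interneurons of superficial layers that many NPY-positive neurons belong to, inhibit their neighbours slowly by releasing GABA into the surrounding space.

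The 250 bases before the transcription start of Necab2 and of Pvalb are shown because the former was the member most often of highest level in CA3 and the latter a class marker that nearly every cell lacked. Both were taken from RefSeq on GRCm38.p6, run 5′ to 3′ on the strand of the gene and have CG pairs in capitals. Necab2 is at chr8:119446469-119446718 on the plus strand and Pvalb at chr15:78206401-78206650 on the minus strand.
Necab2: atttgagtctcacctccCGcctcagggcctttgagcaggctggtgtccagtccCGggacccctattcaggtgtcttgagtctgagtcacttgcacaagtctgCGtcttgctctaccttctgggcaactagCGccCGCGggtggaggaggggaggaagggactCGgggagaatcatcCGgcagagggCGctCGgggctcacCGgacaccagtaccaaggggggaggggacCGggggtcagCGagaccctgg
Pvalb: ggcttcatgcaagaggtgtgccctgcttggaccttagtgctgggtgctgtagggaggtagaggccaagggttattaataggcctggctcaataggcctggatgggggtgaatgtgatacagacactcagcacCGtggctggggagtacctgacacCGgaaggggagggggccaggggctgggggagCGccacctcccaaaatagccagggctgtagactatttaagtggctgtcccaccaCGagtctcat
The Necab2 window held 13 CG pairs and 64.0% G and C, and the Pvalb window held 4 CG pairs and 58.4% G and C. Over all promoters of the RefSeq table the median was 6 CG pairs (quartiles 2 to 16) and 52.4% (45.2% to 61.2%). Nothing measured here bears on the use of these promoters.

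Total reads on genes ranged from 1715012 to 6265431 per AC cell, from 2229519 to 7949918 per CA3 cell and from 601781 to 3202430 per CA1 cell, and 3163 to 8149 genes had a read in a cell. The GABAergic markers (Gad1, Gad2, Slc32a1, Npy and Lamp5) were read in every region, with a summed level of 5120 to 28300 reads per 1000000 reads on genes (CPM) in AC, 5050 to 17000 CPM in CA3 and 11600 to 14900 CPM in CA1. Of the 4 markers of other interneuron classes, Sst and Vip were at 0 in all 26 cells, whereas Cck was read in 3 of 10 AC, 10 of 13 CA3 (up to 1450 CPM, N28) and 2 of 3 CA1 cells, and Tac1 in the CA3 cell N31 (302 CPM). The 7 pyramidal cell markers reached at most 137 CPM in AC (cell N46), 270 CPM in CA3 (N26) and 138 CPM in CA1 (N1). In N26 this sum held Neurod2 (190 CPM), Nrn1 (66.4 CPM) and Slc17a7 (13.9 CPM), with Neurod6 and Tbr1 at 0, and in N46 Slc17a7 stood at 103 CPM. Glial markers were also read, with an astrocyte sum of up to 1090 CPM (N46), an oligodendrocyte sum of up to 955 CPM (N28) and a microglia sum of up to 3710 CPM (N42). Astrocyte markers were read in 7 of 10 AC, 1 of 13 CA3 and 3 of 3 CA1 cells. The counts were 4, 10 and 2 cells for oligodendrocyte markers and 8, 10 and 2 for microglia markers. The part of cells with pyramidal or glial markers in the levels below was not tested beyond leaving cells out.

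Levels are log2(normalized count + 1) unless another scale is named, with normalized counts from scran size factors. The labels name no mouse for a cell, so each region counts as 1 sample and no p-value was computed. SDs are over cells. Intervals around summed CPM are exact Poisson 95% intervals that cover counting error of reads only, although amplified reads are not independent molecules. Intervals around shares are exact binomial 95% intervals over cells, which treat cells as independent draws and leave out any spread between mice. For a member without a read in a region, 3 reads over that region set a limit of 0.0881 CPM in AC, 0.0614 CPM in CA3 and 0.596 CPM in CA1. A difference of at least 1 in mean level between regions is spoken of as called. Hpca, Hpcal4, Ncald, Necab1 and Necab2 were read in 10 cells or more and entered that comparison beside 6597 genes in all, whereas Calb1, Calb2, Pvalb and Hpcal1 did not.

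**Figure D1:**
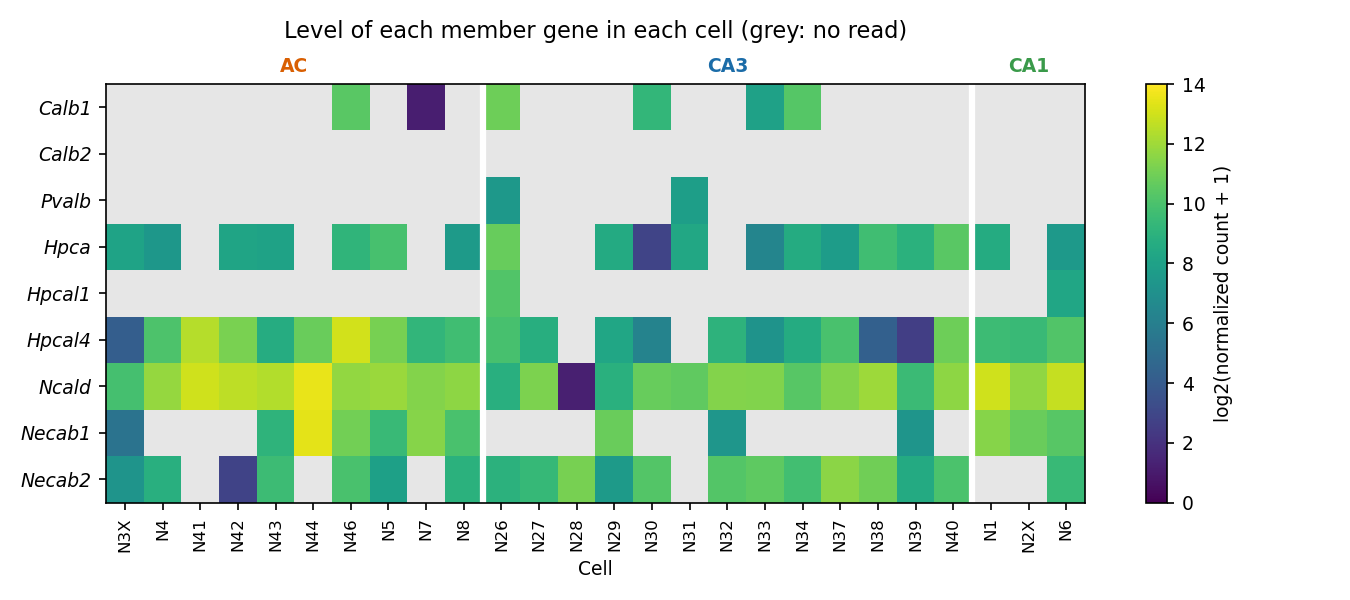
Level of the 9 member genes (rows) in each of the 26 cells (columns, by region) on the log2(normalized count + 1) scale, with grey for no read. Ncald was read in all 26 cells and Hpcal4 in 24, while the Calb2 row is empty.

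The 3 buffers used to sort interneurons were sparse. Calb2 had no read in any of the 26 cells. Pvalb had no read in the 10 AC and the 3 CA1 cells and was read in 2 of 13 CA3 cells (15.4%, 95% interval 1.92% to 45.4%), N31 with 231 reads, where Tac1 was also read, and N26 with 113. Its summed level in CA3 was 7.04 CPM (6.32 to 7.83), at least 79.9-fold higher than the AC limit, and at least 28.3-fold without N31 (2.50 CPM). The gene lies at chr15:78191114-78206400 (GRCm38), and its mean level in CA3 was 1.18 ± 2.88 (SD, n = 13 cells). That mean rests on 2 cells, and without N31 the difference of AC from CA3 moved from -1.18 to -0.62.

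Calb1 was read in 2 of 10 AC cells, 4 of 13 CA3 cells and none of the 3 CA1 cells. In AC, cell N46 held 1265 of the 1266 reads (99.9%) and N7 a single read. In CA3, N34 held 1991 reads, N26 1274, N30 479 and N33 340, for a summed level of 83.6 CPM (81.0 to 86.2) against 37.2 CPM (35.2 to 39.3) in AC. Without N34 CA3 was at 47.7 CPM and its ratio over AC moved from 2.25 to 1.28, and without N46 a single read was left in AC. The remaining cells of each region were at 0, so that no cell lay between 1 and 340 reads. N46 and N26 were also the cells of highest pyramidal marker sum in AC and CA3, and Calb1 is carried by some pyramidal cells and granule cells as well as by interneurons. The other 3 CA3 cells with Calb1 had pyramidal sums of 0.358 CPM (N30), 0 CPM (N33) and 0.401 CPM (N34), and N39, at 12.2 CPM, had no Calb1 read. All 4 CA3 cells with Calb1 also had reads on Lhx6, a transcription factor of interneurons from the medial ganglionic eminence, and on Nos1, the neuronal nitric oxide synthase. Lhx6 was read in 12 of the 13 CA3 cells, in N27 and N38 with only 2 reads each, and Nos1 in 10.

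Among the hippocalcin-like sensors, Ncald (neurocalcin delta) was the member read most evenly. It was read in all 26 cells, from 308 to 3300 CPM with a median of 1160 CPM per AC cell, from 0.421 to 1220 CPM with a median of 490 CPM per CA3 cell, and at 957, 2230 and 2290 CPM in the CA1 cells. The lowest value is 1 read in the CA3 cell N28, and every other cell had at least 297 reads. Summed levels were 1340 CPM (1320 to 1350) in AC, 552 CPM (546 to 559) in CA3 and 1430 CPM (1390 to 1460) in CA1, the last being 2250 CPM without N2X. The mean level was 11.98 ± 1.00 in AC (SD, n = 10), 9.94 ± 2.80 in CA3 (n = 13) and 12.48 ± 0.70 in CA1 (n = 3), and the cells of all regions overlapped. AC exceeded CA3 by 2.05, more than the SD in AC and less than the SD in CA3, and by 1.32 without N28. Over all labelled cells, many of the added ones shallow or gene-poor, the sign turned to -1.42. Only 1 of the 9 added AC cells had a Ncald read, and 4 of the 8 added CA3 cells did. Of the added CA3 cells, N13, N14, N15, N17, N18, N22 and N23 had no read on Npy or Gad1. The added AC cells N9, N10, N49, N50 and N52 had no Npy read.

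Hpcal4, a visinin-like sensor of the same family, was read in all 10 AC cells, 11 of 13 CA3 cells and all 3 CA1 cells. Levels ran from 4.18 (N3X, 23 reads) through a median of 10.43 to 13.02 (N46) in AC, and from 0 (N28 and N31) through 8.29 to 10.89 (N40) in CA3. The CA1 cells lay close together at 9.51, 9.60 and 10.20. The cells of AC and CA3 overlapped, with low cells in both, and the CA3 cell N40 lay above all CA1 cells. Summed levels were 615 CPM (607 to 623) in AC and 126 CPM (123 to 129) in CA3, a ratio of 4.87, and 253 CPM (239 to 267) in CA1. The difference of AC from CA3 in mean level was 3.43, from 10.03 ± 2.46 (SD, n = 10) and 6.60 ± 3.73 (n = 13), larger than the SD in AC but not that in CA3, and leaving out any 1 cell kept it between 2.88 and 4.08.

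Hpca (hippocalcin) was read in 7 of 10 AC, 10 of 13 CA3 and 2 of 3 CA1 cells, and its differences between regions stayed below the size set for a call with scran factors and all 26 cells. In AC it ran from 0 in N41, N44 and N7 through a median of 7.85 to 9.91 in N5. In CA3 it ran from 0 in N27, N28 and N32 through 8.40 to 10.72 in N26, and the CA1 cells were at 0, 7.58 and 8.64. The mean levels of 5.84 ± 4.09 (SD, n = 10), 6.34 ± 4.11 (n = 13) and 5.41 ± 4.71 (n = 3) differed by less than the spread between cells. Hpca is strongly expressed in hippocampal pyramidal cells. Its level had a Spearman rho of 0.39 with the summed pyramidal markers over the 26 cells. The rho was 0.09 for Hpcal4, -0.05 for Ncald, -0.08 for Necab1 and -0.19 for Necab2. The pyramidal sum had a median of only 0.613 CPM in AC, 0.401 CPM in CA3 and 0.312 CPM in CA1. These rho therefore rank mostly sums of few or no reads. Hpca without N27, N28 or N32 gave a difference of AC from CA3 of -1.02, which passes the size set, and without N41, N44 or N7 the direction turned (0.15). The difference of CA3 from CA1 was 0.93, but 1.02 with TMM, 1.18 with DESeq2 factors and 2.21 with summed CPM, and it ran from -1.78 without N2X to 2.54 without N1, so that its direction rests on which CA1 cells are used. Hpcal1, a close relative, was read in no AC cell, in CA3 only in N26 (770 reads) and in CA1 only in N6 (120 reads). Of the 30-base stretches of the Hpcal1 exons, 20.6% also occur in other genes on either strand, against 2.66% for Hpca and 6.68% for Ncald. A read within such a stretch may fit more than 1 gene.

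In mean log2 level, Necab1 differed most between AC and CA3 among the members. By summed CPM the bounds for Hpcal1 and Pvalb, each read in 1 or 2 CA3 cells and no AC cell, were larger. It was read in 7 of 10 AC cells (70.0%, 34.8% to 93.3%), 3 of 13 CA3 cells (23.1%, 5.04% to 53.8%) and 3 of 3 CA1 cells (29.2% to 100%). Levels in AC were at 0 in N4, N41 and N42, had a median of 9.30 and reached 13.41 in N44, which alone held 9934 reads or 58.8% of the region. In CA3 10 cells were at 0, and N29 held 1748 reads, N39 394 and N32 172. The CA1 cells were at 10.34, 10.82 and 11.43, each above all CA3 cells but N29 (10.78), which exceeded N6 only. Summed levels were 497 CPM (489 to 504) in AC, 47.4 CPM (45.5 to 49.3) in CA3 and 530 CPM (510 to 551) in CA1, a ratio of 10.5 for AC and 11.2 for CA1 over CA3. These ratios rest on single cells: without N44 AC was at 227 CPM and its ratio 4.79, and without N29 CA3 was at 12.4 CPM and the ratios were 40.1 and 42.8.

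The mean level of Necab1 was 6.98 ± 5.23 in AC (SD, n = 10), 1.96 ± 3.81 in CA3 (n = 13) and 10.87 ± 0.55 in CA1 (n = 3). The difference of 5.02 between AC and CA3 was below the SD in AC and above that in CA3, and 99.8% of the 6597 genes had a smaller one. Leaving out any 1 cell kept it between 4.31 and 5.80. The difference of CA3 from CA1 was -8.91, more than either SD in size, and 5 genes lay further below. Of the Necab1 stretches, 8.36% also occur in other genes, among them its antisense gene Gm11837, and whether the counting used strand is not clear from the sources.

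Necab2, a related protein that binds adenosine and glutamate receptors, had the opposite order. It was read in 12 of 13 CA3 cells (92.3%, 64.0% to 99.8%), 7 of 10 AC cells (70.0%, 34.8% to 93.3%) and 1 of 3 CA1 cells (33.3%, 0.84% to 90.6%). In CA3 all cells but N31, at 0, lay between 7.62 (N29) and 11.58 (N37), with a median of 10.05. In AC N41, N44 and N7 were at 0, N42 had 5 reads, and the highest was 9.96 in N46, so that no AC cell reached the CA3 median. In CA1 only N6 had reads (268). Summed levels were 337 CPM (332 to 343) in CA3, 92.1 CPM (88.9 to 95.4) in AC and 53.2 CPM (47 to 60.0) in CA1, or 146 CPM there without N2X.

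The mean level of Necab2 was 9.16 ± 2.96 in CA3 (SD, n = 13), 5.53 ± 4.30 in AC (n = 10) and 3.14 ± 5.44 in CA1 (n = 3). AC lay below CA3 by 3.63, more than the SD in CA3 and less than that in AC. Over all labelled cells the difference was -1.84. CA3 exceeded CA1 by 6.02, above both SDs, with 2 of the 3 CA1 cells at 0. That value was 9.16 without N6, 4.45 without N1, 2.47 over all labelled cells and 2.64 with summed CPM. Necab2 is at chr8:119446719-119472640 and Necab1 at chr4:14952245-15149794, both on GRCm38.

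**Figure D2:**
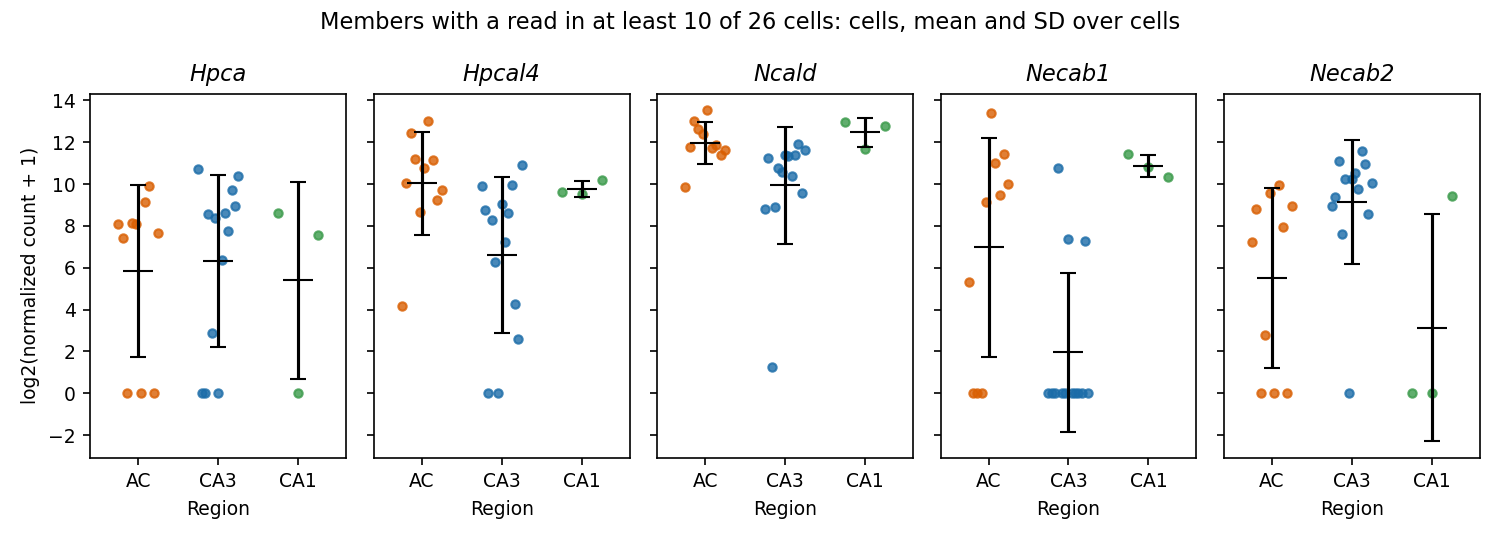
Level of the 5 members that entered the comparison of regions, by region, on the log2(normalized count + 1) scale (points: cells, bars: mean and SD over cells, n = 10, 13 and 3). Necab1 is at 0 in 10 of 13 CA3 cells and above 10 in all 3 CA1 cells, while Necab2 is above 7 in 12 of 13 CA3 cells.

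Both Necab genes were read together in 9 of the 26 cells, Necab1 alone in 4, Necab2 alone in 11 and neither in 2. In AC the split was 5, 2, 2 and 1, in CA3 3, 0, 9 and 1, and in CA1 1, 2, 0 and 0. The 4 cells with Necab1 alone were the AC cells N44 and N7 and the CA1 cells N1 and N2X. Over all cells the levels had a Spearman rho of -0.47, as against -0.02 within AC and -0.39 within CA3. The points share their libraries and size factors, and the value over 26 cells also holds the difference between the regions.

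**Figure D3:**
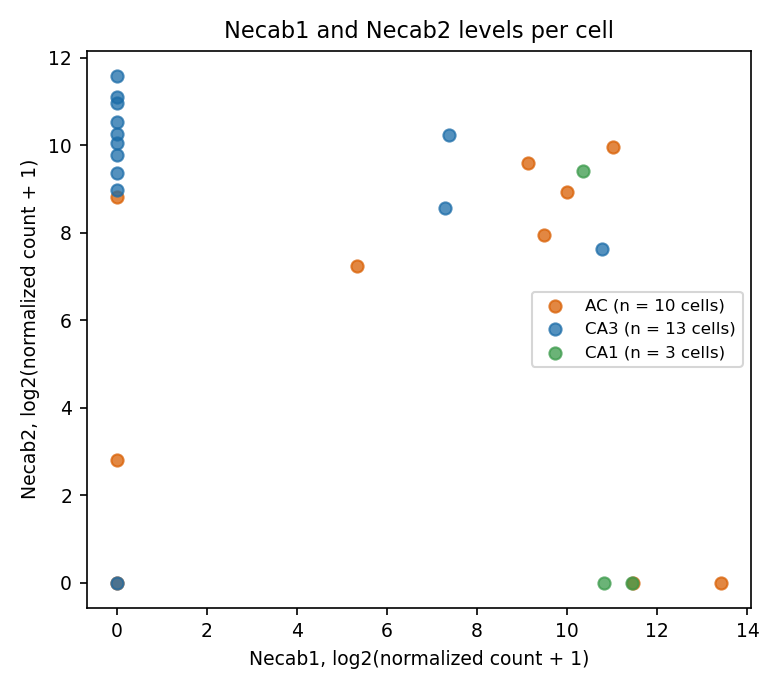
Necab1 level (horizontal) against Necab2 level (vertical) per cell, both log2(normalized count + 1), coloured by region. The 9 CA3 cells with Necab2 alone sit on the left edge, and the cells with Necab1 alone on the bottom edge are 2 of AC and 2 of CA1.

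Against all genes the comparison of AC with CA3 looked as follows. Hpcal4, Ncald and Necab1 were called higher in AC, as were 15.9% of the 6597 genes, and Necab2 was called lower, as were 47.3%. The median gene differed by -0.87, and relative to it Hpcal4 was at 4.30, Ncald at 2.91, Necab1 at 5.89, Hpca at 0.37 and Necab2 at -2.76, where 29.4% of genes lay at least 1 above and 29.4% at least 1 below. A share of 98.8% of genes had a smaller difference than Hpcal4, 93.7% a smaller one than Ncald and 7.31% a smaller one than Necab2. So Necab1 and Hpcal4 were among the most AC-sided of the genes, and Necab2 lay further toward CA3 than most genes, with 7.31% beyond it. The median gene differed by only -0.08 with summed CPM. A median of 5007 genes had a read in an AC cell and 5704 in a CA3 cell. No member was without overlap between AC and CA3, which held in each direction for 0.0303% of genes.

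**Figure D4:**
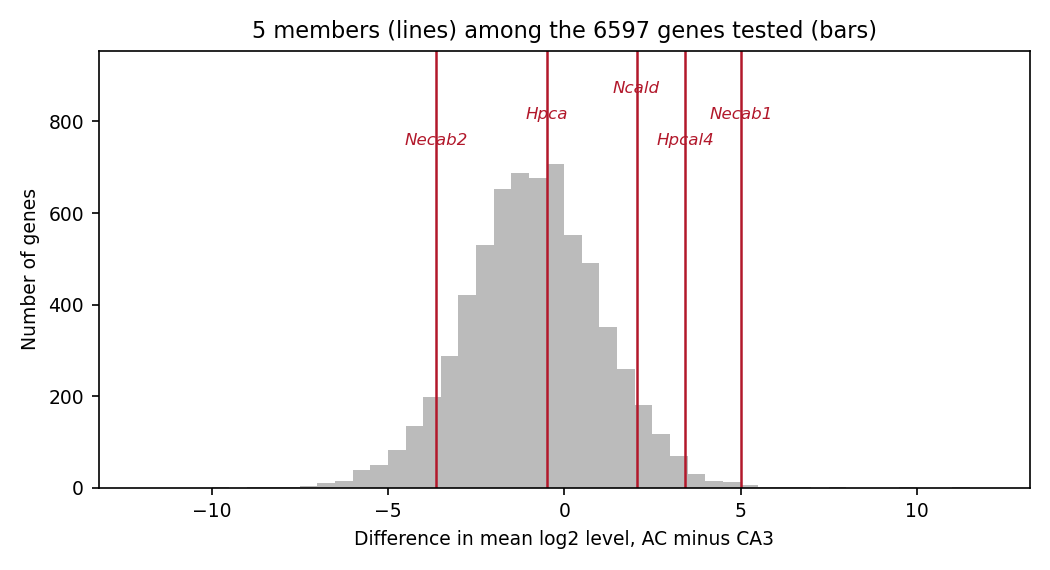
Histogram over the 6597 genes tested of how far the mean log2 level in AC lay above (right) or below (left) that in CA3, with lines for the 5 members among them. Necab1 (5.02) and Hpcal4 (3.43) lie in the right tail and Ncald (2.05) near it, Hpca (-0.50) to the right of the median of -0.87, and Necab2 (-3.63) to the left.

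The comparisons with CA1 use the same AC and CA3 cells and rest on 3 cells. Against CA1, AC was higher by 2.39 for Necab2, a call that 27.1% of genes shared, and lower for Necab1 (-3.89), as were 41.4%. The value for Necab2 was 0.82 without N1 or without N2X, 5.53 without N6, 0.64 over all labelled cells, 0.33 without the cells of highest glial marker level and 0.78 with summed CPM, so that the call is lost in all of these but the one without N6. Relative to the median gene, which differed by -0.46, Necab2 was at 2.86 and Necab1 at -3.42, where 33.3% of genes lay at least 1 above and 34.5% at least 1 below. The values for Hpca (0.43), Hpcal4 (0.27) and Ncald (-0.50) were below 1 in size, but not under every alternative. Hpca was at -2.27 without N2X, 2.05 without N1, -1.62 over all labelled cells and 1.30 with summed CPM. Hpcal4 was at 1.28 with summed CPM and -1.15 over all labelled cells, and Ncald at -5.24 over all labelled cells. Summed over cells, Necab1 was at nearly the same CPM in AC and CA1, with a ratio of 1.07 for CA1 over AC, and 2.34 without N44. CA3 was higher than CA1 for Necab2 (6.02), as were 40.2% of genes, and lower for Hpcal4 (-3.17), Ncald (-2.54) and Necab1 (-8.91), as were 29.6%. With summed CPM, 1 added to each sum, Hpcal4 fell just short of a call, and Ncald was at -1.37 and Necab1 at -3.46. Without that addition the Hpcal4 ratio of CA3 over CA1 was 0.499, just past the size set for a call. Relative to the median gene, which differed by 0.43, Necab2 was at 5.59, Hpcal4 at -3.59, Ncald at -2.97 and Necab1 at -9.33. On that scale 33.6% of genes lay at least 1 above and 35.5% at least 1 below. No member was without overlap here either, against 0.0152% of genes higher and 0.591% lower in AC than in CA1 and 0.531% higher and 0.47% lower in CA3 than in CA1.

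Scaled by exon length, as CPM divided by kilobases of exon (RPKM), levels can be set side by side between genes. In AC the order of mean RPKM was Ncald (158 ± 93.4, SD over 10 cells), Hpcal4 (117 ± 134), Necab1 (101 ± 177), Necab2 (44.4 ± 49.9), Hpca (28.1 ± 33) and Calb1 (8.05 ± 25.4), with the rest at 0. In CA3 it was Necab2 (166 ± 128, SD over 13 cells), Ncald (63.8 ± 42.7), Hpca (45 ± 53.3), Hpcal4 (24.2 ± 29), Calb1 (19.5 ± 38), Hpcal1 (15.7 ± 56.5), Necab1 (9.64 ± 29) and Pvalb (8.49 ± 20.9). In CA1 it was Ncald (213 ± 87.8, SD over 3 cells), Necab1 (110 ± 35.8), Hpcal4 (50.4 ± 17.3), Necab2 (34.6 ± 60.0), Hpca (19.8 ± 19.4) and Hpcal1 (19.2 ± 33.2). In AC and CA3 no neighbours in the order differed by more than the larger of their SDs. In CA1 Ncald differed from Necab1, and Necab1 from Hpcal4, by more than both SDs.

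Cell by cell the same scale gave a plainer split. Necab2 was the member of highest RPKM in 10 of 13 CA3 cells and in no AC or CA1 cell. The other 3 CA3 cells were led by Pvalb (N31), Hpcal1 (N26) and Necab1 (N29). AC cells were led by Ncald (6 cells), Hpcal4 (2) and Necab1 (2), and the CA1 cells by Ncald (3). A cell held reads on 2 to 6 members in AC, 2 to 7 in CA3 and 3 to 6 in CA1. N26, the cell of highest pyramidal marker sum, was the one with 7.

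**Figure D5:**
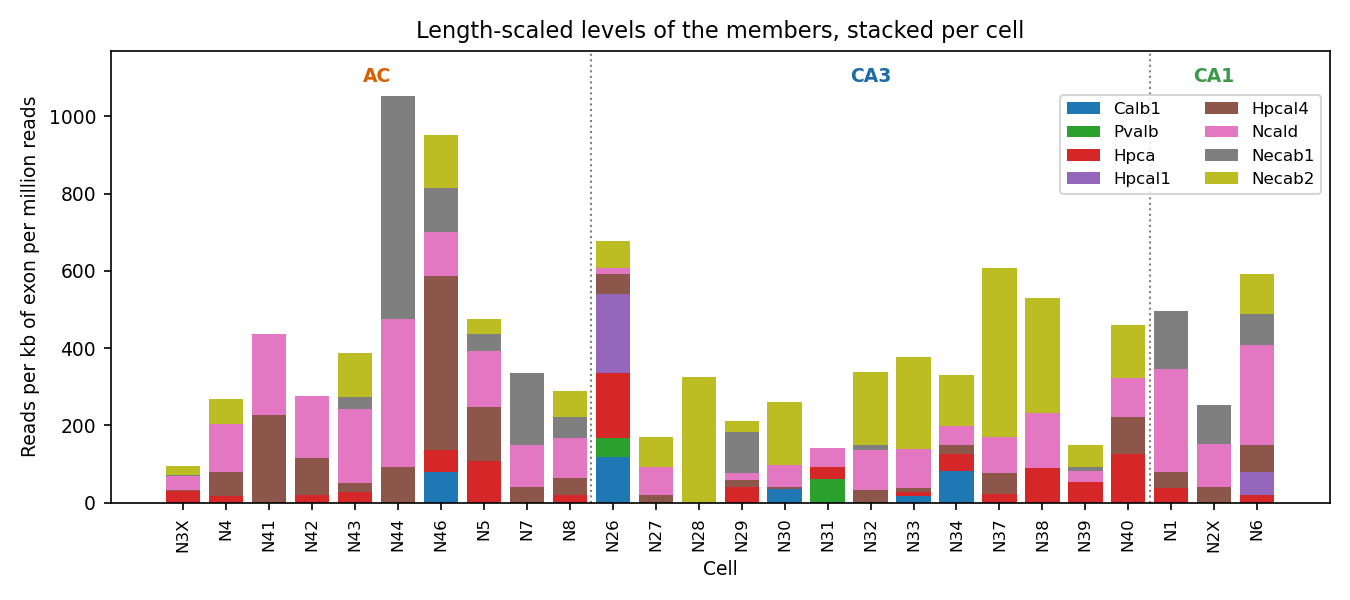
RPKM of the members (vertical axis), stacked for each of the 26 cells in order of region. Necab2 makes the tallest part in 10 of 13 CA3 cells and Ncald in 6 of 10 AC and all 3 CA1 cells.

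Some members were also set beside Ndnf, Lhx6 and Nos1, which differ between these neurons. N29, the CA3 cell with most Necab1 reads, was also the CA3 cell with Ndnf (2125 reads), a marker of neurogliaform cells, and the one without a read on Lhx6. All 3 CA1 cells had Ndnf and Necab1 and none had Lhx6 or Nos1. In AC 6 cells had both Ndnf and Necab1, 1 had Ndnf alone, 1 Necab1 alone and 2 neither. In AC, Hpca and Necab2 were read in the same 7 cells and both missing in the same 3, N41, N44 and N7, a pattern chosen after the values were seen. Those 3 cells had 567, 2050 and 861 CPM of Ndnf, but N43 of AC (351 CPM), N29 of CA3 (671 CPM) and N6 of CA1 (749 CPM) had Ndnf with reads on both Hpca and Necab2. In CA3 the same genes were read together in 9 cells, Hpca alone in 1 and Necab2 alone in 3.

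Across the 26 cells, the 10 pairs among the 5 members had Spearman rho from -0.47 (Necab1 and Necab2) to 0.67 (Hpcal4 and Ncald), the latter with 0.52 within AC and 0.37 within CA3. The genes whose level over the 26 cells was most like a member's were Zyx (rho 0.69) and Pfkl (0.65) for Hpca, Epn1 (0.67) and Prkacb (0.67) for Hpcal4, and G430095P16Rik (0.79) and Cplx3 (0.77) for Ncald. For Necab1 they were Fnbp1l (0.70) and Ranbp9 (0.70), and for Necab2 Ncoa2 (0.81) and Pde2a (0.74). These are the highest of 6597 genes and so are high by choice, and they hold the difference between regions. Ncoa2 kept 0.66 within AC and 0.87 within CA3, whereas Pde2a had -0.06 within AC and 0.65 within CA3.

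Of 37 other genes of EF-hand sensors and buffers, 33 had a read and 17 entered the comparison of AC with CA3. Of these 5 were called higher and 6 lower in AC, or 29.4% and 35.3%, beside 15.9% and 47.3% of all genes, with a median of -0.55 against -0.87 over all genes. The 3 furthest toward AC were Kcnip1, a subunit of A-type potassium channels (3.63), Efhd2 (2.56) and Ncs1, neuronal calcium sensor 1 (1.66). The 3 furthest toward CA3 were Chp1, a partner of sodium-proton exchangers (-2.91), Calm3, one of the calmodulin genes (-2.47), and Cabp7 (-1.68). Kcnip1 was read in 7 of 10 AC, 4 of 13 CA3 and 3 of 3 CA1 cells, close to the counts of Necab1. Against CA1, 3 of the 17 were called higher (17.6%, beside 27.1% of all genes) and 6 lower in AC (35.3%, beside 41.4%). In CA3 7 were called higher (41.2%, beside 40.2%) and 7 lower (41.2%, beside 29.6%).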

How the data were processed

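Single-neuron cDNA was made from patch pipette cytosol with Nextera XT libraries. The deposited file is 1 table of unnormalized read counts by gene symbol and cell. Trimming with Trimmomatic and Flexbar and alignment with STAR to GRCm38 are stated. The methods name HTSeq for counting and the submitters' processing notes featureCounts. The authors averaged the counts of identifiers that share a symbol.

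Cells were grouped by the region in their labels. The 26 cells were scaled in R 4.3.3 with scran 1.30.0 (computeSumFactors, pools of 10 and 20), and levels are log2(normalized count + 1). Differences used genes with a read in at least 10 cells. No test was run, because each region is 1 sample with no mouse named. The steps were run on simulated counts with set differences. The changed genes there did not imitate members that lack a read in many cells. Alternatives were TMM of edgeR 4.0.16, DESeq2 1.42.0 poscounts factors, library size, a pseudocount of 10, no filter, thinning to 601781 reads, summed CPM, 10 reads for detection, all labelled cells and each cell left out. Differences with summed CPM are log2 ratios with 1 added to each sum. Leaving out the cell of highest glial marker level in each region, and each cell in turn from summed CPM, was added after seeing the data. Exon lengths came from GENCODE vM21, and the rest was done in Python 3.11.15 (pandas 2.3.3, scipy 1.17.1, numpy 2.4.6, matplotlib 3.10.9).

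The members, the gene lists and the call size were chosen with earlier results of these data known. Named were all members, the 3 other EF-hand genes furthest in each direction between AC and CA3, the 2 genes most like each member with reads in at least 10 cells, and marker genes. The dentate gyrus and NPY-negative columns entered no comparison. Among all labelled cells, the AC columns N4 and N4X were averaged as 1 cell, since their chi-square per degree of freedom over genes was 2.2, against at least 145 for any other AC pair. The value of 1 marker gene is not reported here.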

Additional observations from a re-analysis of the deposited data

Results flagged for a closer look

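Among the 6 groups of cells that could be examined for a value far from the rest, where chance picks out about 1 in 20 groups, 2 stood out. Calb1 was at 10.4 in the AC cell N46 on the log2 scale, with all other AC cells at 0 or 1 read, and among values that are nearly all 0 any cell with reads stands out, so the chance rate does not apply to it. Hpcal4 was at 4.18 in the AC cell N3X, below the other 9. In data outside the comparisons, 77 reads on Hpcal4 (862 CPM) were found in the dentate gyrus cell N11, and 31 reads on Ncald (106 CPM) in the NPY-negative CA3 cell N16. N11 held only 89297 reads on 647 genes and N16 291745 on 3975, and neither had a read on Npy or Gad1. No other member had a read in the 2 dentate gyrus cells or the NPY-negative cell.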

How the results depend on the processing

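Higher in AC than in CA3 were 3 members, and 2 over all labelled cells, where Ncald reversed. Lower in CA3 than in CA1 were 3 members, 4 without the filter or without N2X, and 2 with summed CPM. There Hpcal4 fell just short of a call only because 1 was added to each sum. Lower in AC than in CA3 was 1 member, 3 without the filter, and 2 over all labelled cells and without the cells of highest glial marker level, where Hpca was at -1.39. Leaving out 1 cell gave 1 to 2, with 2 without N27, N28 or N32. Higher in AC than in CA1 was 1 member, 2 without the filter, 0 over all labelled cells and 2 with summed CPM, and 0 to 2 with 1 cell left out (0 without N2X). Lower in AC than in CA1 was 1 member, 2 without the filter, 4 over all labelled cells and 0 with summed CPM, and 1 to 2 with 1 cell left out. Higher in CA3 than in CA1 was 1 member, 2 with TMM, DESeq2 factors, summed CPM or without the cells of highest glial marker level, 3 without the filter, and 1 to 2 with 1 cell left out.

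Ncald, AC minus CA3, turned to -1.42 over all labelled cells, where 57.9% of AC cells had it. Many of the cells added there had no read on Npy or Gad1. Without the CA1 cell N6, Hpcal1 was at 0.00 for AC minus CA1 and 0.78 for CA3 minus CA1, whereas the lowest with 1 cell left out were -4.13 and -3.34 (without N1). Necab1, AC minus CA1, was -0.09 with summed CPM. The cause was not tested. Thinning each cell to 601781 reads took 1 cell each from Calb1 in AC and from Hpcal4 and Ncald in CA3. No paired analysis was possible because cells of different regions share no number in the labels and no test was run. With 3 CA1 cells, of which N1 and N6 were shallow, and no mouse named, differences with CA1 describe those cells alone.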

Other observations

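Of the AC cells outside the 26, N45 had a member profile of its own, with 19912 reads on Calb1 (3782 CPM), 4186 on Necab1 and the sole Calb2 reads of all labelled cells (123). It also had Lhx6 (1302 reads), which none of the 10 AC cells used had. N47 had reads on Hpcal4 (45271), Necab1 (22848) and Necab2 (6317) and on no other member. N48 (11773 reads) had Hpcal4 as its sole member, and N50 had Hpcal4 (6384 reads) and a single Necab2 read. N47, N48 and N50 had reads on 1719, 1814 and 1575 genes. In CA3, N36 had Ncald (2280 reads) as its sole member and reads on 1753 genes.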
